A study of Mus musculus with 4 samples.

Results

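The measurements below concern 32 cell cycle genes of the mouse, taken from a fixed list of names, in single cells of the colon from control mice and from mice given CCl4 for 6 weeks. All 32 were among the 29897 genes counted, and each had counts in each of the 4 libraries. By role, 12 of them were grouped under DNA replication and the supply of nucleotides (Mcm2, Mcm3, Mcm4, Mcm5, Mcm6, Mcm7, Pcna, Tyms, Rrm1, Rrm2, Tk1 and Hells). A further 5 are cyclins, the kinase Cdk1 and its partner (Cdk1, Ccna2, Ccnb1, Ccnb2 and Cks2), and 7 are mitotic kinases or spindle proteins (Aurka, Aurkb, Bub1, Plk1, Tpx2, Nusap1 and Birc5). Centromere and chromosome proteins make up 6 (Cenpa, Cenpe, Cenpf, Top2a, Mki67 and Hmgb2), and 2 act in the ubiquitination that ends mitosis (Ube2c and Cdc20). A cell was called cycling when at least 3 of the 32 genes were detected in it after its counts had been thinned to 1000. By that rule 958 of 11416 epithelial, 654 of 9345 immune, 89 of 3071 endothelial and 126 of 10417 stromal cells were cycling, out of 36519 cells in all.

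The series held 2 control libraries and 2 libraries of CCl4-treated mice, all from colon. CCl4 is a solvent that injures the liver and is given repeatedly to produce liver fibrosis, and the series title names cirrhosis of the liver. Treatment of specific-pathogen-free mice began at the age of 6 weeks. Neither the strain nor what the control mice received was stated in the labels, and no measure of the liver was among the files. The number of mice behind each library was not stated either, so the p-values below reflect the spread among the 4 libraries alone, and that spread may be purely technical.

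Dividing cells load the Mcm2 to Mcm7 helicase onto DNA before S phase, and Pcna clamps the polymerases to the template while thymidylate synthase, thymidine kinase and ribonucleotide reductase supply the nucleotides. Cyclin A and cyclin B with Cdk1 then carry the cell into mitosis, the Aurora, Polo and Bub1 kinases order the spindle and its checkpoint, and Cdc20 with the ubiquitin-conjugating enzyme Ube2c drives the exit. In the colon, division is concentrated in stem and transit amplifying cells of the lower crypt, and cells stop dividing as they move towards the surface. Lymphocytes and plasmablasts also divide in the mucosa, whereas most fibroblasts, endothelial cells and enteric glia of the adult gut are at rest.

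Genes of these groups are known to share promoter elements. The CHR (TTTGAA) and the CCAAT box (CCAAT) are bound by complexes that raise late cell cycle genes, and E2F sites (TTTGGCGC or TTTCCCGC) serve replication genes. Of the 32 genes, 28 had a promoter in RefSeq on GRCm38.p6, giving 29 promoters. Both strands of the 250 bases before the start were searched, and none of the motifs contains another. The CHR was in 8 of 29 promoters (27.6%, against 16% of all 32817 promoters of the same length), the CCAAT box in 24 of 29 (82.8%, against 33.8%) and an E2F site in 4 of 29 (13.8%, against 1.30%). Below are the last 120 bases before the start of 5 genes whose levels differed between the groups in some class of cells. Each is written 5′ to 3′ on the strand of its gene, with every match, in either orientation, in capitals. They are Top2a (chr11:99024190-99024309, minus strand), Ube2c (chr2:164769809-164769928, plus strand), Cdc20 (chr4:118437344-118437463, minus strand), Mki67 (chr7:135716380-135716499, minus strand) and Mcm6 (chr1:128359706-128359825, minus strand).
Top2a: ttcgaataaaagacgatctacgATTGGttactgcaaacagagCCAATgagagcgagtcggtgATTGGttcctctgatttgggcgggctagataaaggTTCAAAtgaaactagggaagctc
Ube2c: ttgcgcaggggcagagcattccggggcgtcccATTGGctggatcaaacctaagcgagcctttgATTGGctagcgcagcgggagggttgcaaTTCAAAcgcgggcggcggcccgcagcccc
Cdc20: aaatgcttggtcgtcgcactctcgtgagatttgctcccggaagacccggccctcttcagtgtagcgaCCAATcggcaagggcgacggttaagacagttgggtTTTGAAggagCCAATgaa
Mki67: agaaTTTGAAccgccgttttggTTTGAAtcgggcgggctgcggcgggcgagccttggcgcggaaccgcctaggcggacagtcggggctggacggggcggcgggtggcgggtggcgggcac
Mcm6: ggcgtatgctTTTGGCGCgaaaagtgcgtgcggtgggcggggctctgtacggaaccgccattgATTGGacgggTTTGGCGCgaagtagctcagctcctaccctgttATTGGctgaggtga
Top2a, Ube2c and Cdc20 carry CCAAT boxes and a CHR in this stretch, Mki67 carries the CHR alone, and Mcm6 carries E2F sites and CCAAT boxes. A match describes the letters and does not show that a factor binds there.

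The libraries held between 10021 and 13986 cell barcodes and between 55834301 and 92383719 counts, and 8102 to 10382 cells per library were used. Median mitochondrial shares of these cells were 4.84% and 4.56% in control and 7.51% and 6.85% in CCl4 libraries. Cell identifiers in the files were serial names, and 7277 of 17330 occurred in all 4 libraries. Cell names are those of clusters rebuilt from fixed markers ("X-like"), and the suffix is left out from here on. Undivided cells had the shared markers of their compartment but no single class. RNA of epithelial cells was more abundant in the other cells of the CCl4 libraries. The summed level of 10 shared epithelial markers was 362 and 364 CPM (counts scaled to a common library total) in control and 818 and 878 in CCl4 immune cells, with 10 of 10 markers above both controls and none at 0. In endothelial cells it was 340 and 335 against 684 and 685, and in stromal cells 340 and 334 against 750 and 849, again with 10 of 10 markers higher. The part of this RNA in the results for those cells was not tested.

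By the rule of at least 3 genes the share of cycling cells was highest in the epithelium, and it did not pass the test between the groups there. With at least 2 genes the immune share was the higher one in all 4 libraries. Listing library 1 before library 2 and the control group first, as throughout, 173 of 1842, 154 of 1819, 323 of 4053 and 308 of 3702 epithelial cells were cycling. These are 9.39%, 8.47%, 7.97% and 8.32%, with exact binomial 95% intervals from 8.10 to 10.8% in the first library to 7.45 to 9.26% in the last. The mean was 8.93 ± 0.655% in control and 8.14 ± 0.248% in CCl4 libraries (SD, n = 2), a log2 ratio of -0.13 (SE 0.07, adjusted p = 0.231 in edgeR's quasi-likelihood test over the 4 compartments). With 2 libraries a group, the smallest p of the exact permutation test (two-sided) is 0.3333, and all 4 compartments gave that value. Intervals throughout cover counting error only.

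Immune cells came next, with 7.06% and 7.46% cycling in control and 6.69% and 6.70% in CCl4 libraries (log2 ratio -0.12, SE 0.08, adjusted p = 0.303 in edgeR). Endothelial cells had 2.25% and 2.61% against 3.23% and 3.46% (log2 ratio 0.45, SE 0.21, adjusted p = 0.231 in edgeR). In stromal cells the share was 1.10% and 0.769% in control and 1.38% and 1.66% in CCl4 libraries, from 21 to 39 cycling cells per library. That last difference passed the edgeR test (log2 ratio 0.70, SE 0.18, adjusted p = 0.027), but it lost the call when any 1 of the 4 libraries was left out.

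Low shares have to be read against cells in which few divide. Enteric glia gave 2.96% and 1.85% in control and 2.93% and 2.06% in CCl4 libraries, from 3 to 8 cells, at a median of 3297 to 3748 counts per cell before thinning. Stromal cells, at 3630 to 4276 counts, lay below the glia in each library, so by this reference their share was not told apart from background. The levels behind the rule differ between these cells: Hmgb2 was at 448 to 779 CPM in their sums and at 187 to 229 in stromal sums. Endothelial cells, at 3223 to 4047 counts, overlapped the range of the glia. Among epithelial cells, the colonocyte cluster led by Guca2a and Car1 had 0.909%, 0.232%, 0.589% and 0.916%, below the stromal share in each library. Epithelial and immune shares were above all of these levels in every library.

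**Figure D1:**
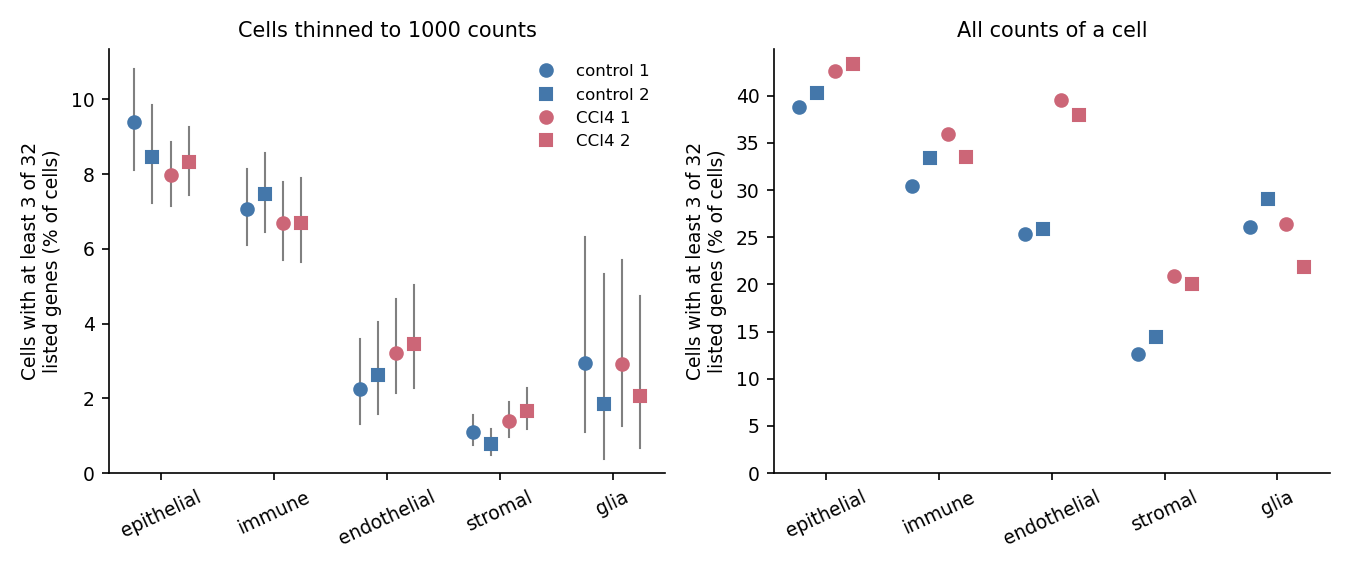
Share of cycling cells (% of cells) by compartment and library, with cells thinned to 1000 counts on the left (bars, exact binomial 95% intervals) and with all counts on the right. Blue symbols are control and red symbols CCl4 libraries, circles library 1 and squares library 2; in thinned cells epithelial and immune shares lie between 6.69% and 9.39% and stromal shares below those of glia.

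Depth set the level of these shares. With all counts used, 38.8% and 40.3% of control and 42.6% and 43.4% of CCl4 epithelial cells had at least 3 of the genes, and the direction of the difference turned. The median epithelial depth was 6011.5 and 6165 counts in control and 6174 and 5681 in CCl4 libraries. What turned the direction was not tested. On all counts glia gave 26.1%, 29.0%, 26.4% and 21.8%. Endothelial cells gave 25.3% and 25.9% against 39.5% and 37.9%, and their median depth was also higher in the CCl4 libraries. Only the thinned shares are compared from here on.

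The 32 genes contributed unequally to the cycling cells. Hmgb2, an abundant chromatin protein that bends DNA, was detected in 74.3% of cycling epithelial, 76.6% of cycling immune, 52.8% of cycling endothelial and 74.6% of cycling stromal cells. It was also detected in 18.6%, 24.4%, 12.2% and 14.7% of the other cells. Mki67, which coats mitotic chromosomes and is used as a marker of dividing cells, was in 31.9% of cycling epithelial cells and 14.2% of cycling immune cells. In endothelial and stromal cells it was in 2.25% and 4.76%. Pcna showed the opposite order, with 16% of cycling epithelial, 56.0% of immune, 66.3% of endothelial and 56.3% of stromal cells. Without Hmgb2, Pcna and Cks2, the number of cycling cells was 97 and 89 in control and 182 and 174 in CCl4 epithelium. Stromal cells then kept 6, 2, 8 and 5, and endothelial cells 2, 6, 4 and 7.

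Genes outside the list did not enter the rule, but they shared its cells and depth. The class of cell was not held fixed in any compartment. Undivided epithelial cells made up 66.6% to 77.9% of cycling and 42.8% to 46.5% of all epithelial cells of a library. For colonocytes these shares were 10.4% to 18.0% and 31.6% to 41.5%. The part of this mix of classes in the differences below was not tested. Cycling and other epithelial cells of a library were compared on thinned counts with library as a block, and 1349 of 8769 genes differed (15.4%; 692 higher in cycling cells, 657 lower). The low-count filter of this comparison kept genes with enough counts in either kind of cell, here and in the other compartments. Genes low in the other cells could thus enter only through the cycling cells, where they were high. Counts and medians of the lists below are therefore partly set by the filter. Of the S phase genes not among the 32, 21 of 23 tested were higher, with a median log2 ratio of 1.95 against 0.01 over all genes. Of the other G2 and M phase genes, 35 of 36 were higher, with a median of 3.34, among them Ckap2l, a spindle protein (4.18), and Hmmr, which organises spindle poles (4.02). The clamp-associated factor Pclaf, an S phase gene, was higher by 4.05. Genes of the colonocyte surface were lower in 10 of 11 cases. Krt20, a keratin of the upper crypt, stood at 34.7, 19.5, 24.8 and 29.2 CPM in cycling cells and at 464, 423, 288 and 284 CPM in the others (log2 ratio -3.66). Crypt base genes were higher in 4 of 9 cases (Cdca7, Sox9, Ephb2 and Slc12a2). Among inhibitors, 5 of 14 were lower, including the quiescence genes Btg1 (-1.29) and Ccng2 (-1.33), and Cdkn2d was higher (1.84).

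In immune cells 323 of 8372 genes differed in this comparison (3.86%; 150 higher, 173 lower). There 11 of 17 other S phase genes and 17 of 19 other G2 and M phase genes were higher, for example Pclaf (4.59) and the kinetochore gene Nuf2 (4.2). The antibody genes Igkc (-1.83), Igha (-1.91) and Jchain (-1.99) were lower. Their RNA counts towards the fixed total to which each cell was thinned. In plasma cells the 10 plasma cell markers summed to 528675 and 509407 CPM in control and 465692 and 476664 in CCl4 libraries. Cells rich in this RNA keep fewer counts for the listed genes, which makes the rule harder to meet. The part of this in the lower antibody levels was not tested. In endothelial and stromal cells none of the other S, G2 or M phase genes tested passed (6 and 3 tested in endothelial, 12 and 4 in stromal cells). The background was 0.0537% of 5588 genes in endothelial and 1.04% of 9381 genes in stromal cells. With 89 and 126 cycling cells, the number of genes that could be tested was small.

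Levels were compared as CPM of the counts summed over the cells of a compartment in a library, scaled by TMM factors. In such sums a larger share of cycling cells and more RNA per cycling cell cannot be told apart. In epithelial cells none of the 32 genes passed the edgeR test at an adjusted p of 0.05, with 3.75% of all 17524 genes called. At an unadjusted p under 0.05 in edgeR there were 4 of 32, against 3159 of all 17524 genes. DESeq2 called 0 as well, and 13 of 32 had libraries that did not overlap between groups, against 48.1% of all genes. The median log2 ratio was 0.05, with 19 genes above 0 and 13 below.

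Among replication genes of the epithelium, Pcna measured 75.1 and 79.5 CPM in control and 82.5 and 77.5 in CCl4 libraries, and Tyms, which makes thymidylate, 26.8 and 22.7 against 28.8 and 26.2. For both genes the groups overlapped. Among cyclins and partners, Cks2 stood at 126 and 113 against 129 and 121 CPM, and Cdk1 at 21.7 and 20.1 against 19.0 and 18.8. Ccna2, cyclin A, stood at 12.1 and 11.9 against 16.5 and 15 (log2 ratio 0.39, SE 0.12, adjusted p = 0.09 in edgeR). Its groups did not overlap, but the difference did not pass.

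The spindle genes Birc5 (24.4 and 22.6 against 23.7 and 18.9 CPM) and Nusap1 (15.8 and 11.9 against 14 and 12.4) overlapped between groups. So did Hmgb2, at 387 and 345 against 389 and 385, and Mki67, at 50.7 and 52.6 against 52.0 and 46.8. Top2a, the topoisomerase that untangles sister chromosomes, stood at 49.6 and 43.7 in control and 37.6 and 37.5 in CCl4 libraries (log2 ratio -0.31, SE 0.08, adjusted p = 0.0651 in edgeR). Ube2c stood at 51.8 and 44.4 against 39.3 and 37.9 (log2 ratio -0.32, SE 0.09, adjusted p = 0.0759 in edgeR), and Cdc20 at 16.8 and 13 against 17.0 and 17.9. Both Top2a and Ube2c were lower in both CCl4 libraries without passing the test.

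This level sum covered classes that differed in direction. Undivided epithelial cells, which held most cycling epithelial cells, had a lower share in the CCl4 libraries, and colonocytes had a higher one. Among undivided cells 126 of 788, 120 of 822, 215 of 1886 and 210 of 1659 were cycling, or 16%, 14.6%, 11.4% and 12.7% (log2 ratio -0.35, SE 0.09, adjusted p = 0.018 in edgeR over 13 classes). Among colonocytes, the absorptive cells, 25 of 764, 16 of 708, 58 of 1280 and 52 of 1243 were cycling, or 3.27%, 2.26%, 4.53% and 4.18% (log2 ratio 0.64, SE 0.20, adjusted p = 0.0375 in edgeR). In mucus-secreting goblet cells the share was 8.03% and 6.20% against 5.95% and 5.93% (log2 ratio -0.26, adjusted p = 0.689 in edgeR). The difference between undivided cells and colonocytes was not tested. Each of these calls was lost when certain single libraries were left out: adjusted p was 0.16, 0.0648 and 0.131 for undivided cells without control 1, control 2 or CCl4 1. For colonocytes it was 0.474, 0.131 and 0.081 without control 2, CCl4 1 or CCl4 2. When Hmgb2, Pcna and Cks2 were not counted, neither passed (adjusted p 0.376 and 0.225 for undivided cells and colonocytes), nor with at least 2 genes (0.0986 and 0.0887).

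Undivided cells fell into 2 clusters, and the lower share passed the test in 1 of them. In the cluster led by Dmbt1 and Wfdc2, 21.2% and 21.8% of control and 14% and 14.4% of CCl4 cells were cycling (log2 ratio -0.60, adjusted p = 0.00105 in edgeR), and the groups were well apart. The other cluster, led by Gm26917 and with a median of 2334 counts per cell, had 11.2% and 9.41% against 9.26% and 11.0% (log2 ratio -0.03, adjusted p = 0.988 in edgeR). A test of the difference between the clusters was not made. The tests within single epithelial clusters, here and below, were added after seeing the data. Clusters were built without the 32 genes but with other genes, some of them cell cycle genes.

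Colonocytes were a mixture whose makeup differed between the groups. The cluster led by Dmbt1 and Hao2, with most of their cycling cells, held 142 of 764 and 116 of 708 control but 497 of 1280 and 411 of 1243 CCl4 colonocytes. The Guca2a cluster held 440 and 431 control and 509 and 546 CCl4 colonocytes. Within the Dmbt1 and Hao2 cluster the share of cycling cells was 14.1% and 12.9% in control and 10.7% and 10.7% in CCl4 libraries (log2 ratio -0.34, adjusted p = 0.508 in edgeR), so the direction of the class did not hold inside it. Guca2a itself, which encodes guanylin and leads the other cluster, was at 12400 and 11428 CPM in control and 8376 and 8392 CPM in CCl4 colonocytes. The cluster sizes are given for the makeup of the class and were not tested.

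**Figure D2:**
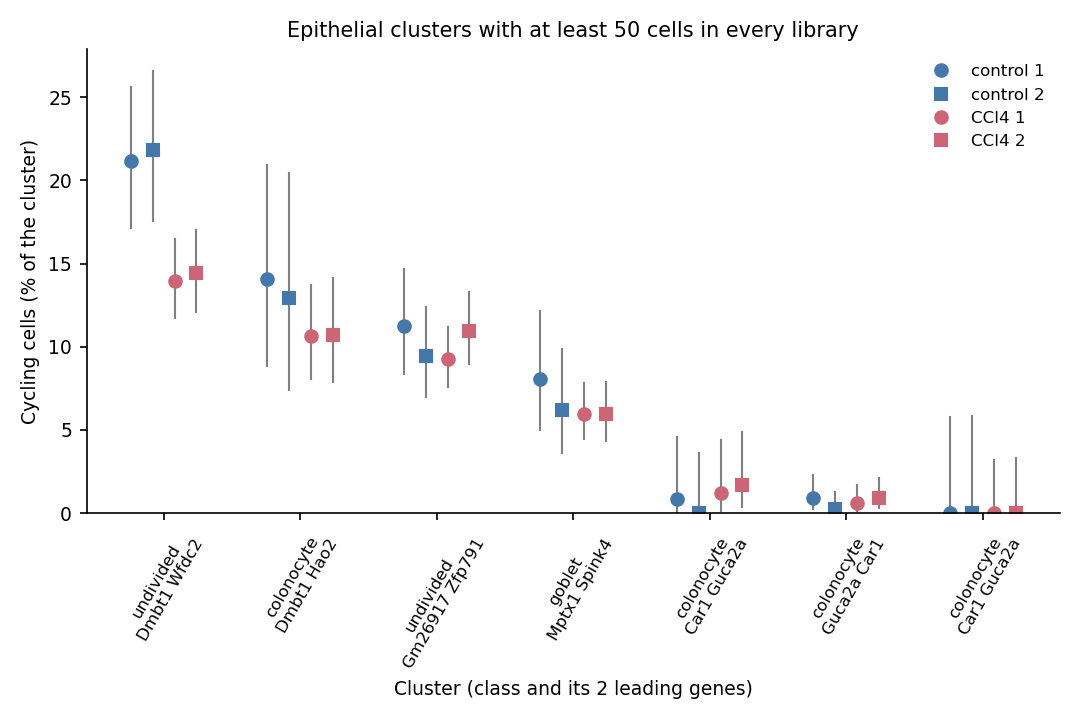
Share of cycling cells (% of the cluster) in the epithelial clusters with at least 50 cells in every library, with exact binomial 95% intervals; blue is control, red is CCl4, circles are library 1 and squares library 2. The undivided cluster led by Dmbt1 and Wfdc2 shows 21.2% and 21.8% in control and 14% and 14.4% in CCl4 libraries, and the Guca2a-led colonocytes are near 0.

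Levels in undivided cells followed the same order as the shares. Both came from the same 32 genes in the same cells, so the levels are not separate support for the shares. The same holds for the other classes. Ube2c fell from 145 and 112 CPM to 77.0 and 83.5 (log2 ratio -0.67, SE 0.12, adjusted p = 0.00614 in edgeR) and was the 1 gene of 32 called, with 0.59% of all genes called. The call held without any 1 library. Of the 32, 29 had a log2 ratio below 0, with a median of -0.34 against 0.00 over all genes. Within the Dmbt1 and Wfdc2 cluster, 3 of 32 genes were lower, with 0.788% of all genes called, and 30 of 32 ratios were below 0. Top2a fell from 146 and 135 to 86.8 and 98.8 CPM (log2 ratio -0.60, SE 0.12, adjusted p = 0.0176 in edgeR). Ube2c fell from 171 and 131 to 85.8 and 93.4 (-0.75, SE 0.13, adjusted p = 0.00513), and Cenpa, the histone that marks centromeres, from 45.4 and 46.1 to 28.8 and 25.4 (-0.75, SE 0.17, adjusted p = 0.041). Each gene was lower in both CCl4 libraries than in either control. In the Gm26917 cluster none was called, with 0.188% of all genes called, and 16 ratios lay on either side of 0.

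Colonocytes had 8 of 32 genes higher in the CCl4 libraries, with 3.17% of all genes higher and 6.26% called in either direction, and 32 of 32 log2 ratios above 0 (median 0.68). The replication helicase genes Mcm2 and Mcm6 rose from 2.46 and 3.22 to 8.02 and 6.15 CPM and from 6.55 and 10.02 to 17.8 and 12.6. Ccna2 rose from 5.73 and 5.07 to 16.9 and 12.1 (log2 ratio 1.43, SE 0.22, adjusted p = 0.00347 in edgeR), and Cdk1 from 8.30 and 9.44 to 15 and 14.5. Ccnb1, cyclin B, rose from 3.62 and 2.07 to 8.36 and 6.41. In each of these the groups were apart. Cenpa rose from 10.8 and 9.56 to 20.0 and 13.8, and Cenpe, a kinetochore motor, from 6.55 and 8.18 to 15.6 and 13.3. Cdc20 rose from 6.20 and 5.18 to 16.8 and 14.3 (log2 ratio 1.45, SE 0.19, adjusted p = 0.00158 in edgeR). Cdc20, Ccna2 and Cenpe kept the call without any 1 library, Mcm2, Cdk1, Ccnb1 and Cenpa lost it without CCl4 1 (adjusted p 0.196, 0.106, 0.149 and 0.472), and Mcm6 lost it without control 1 or CCl4 1 (0.0961 and 0.268). DESeq2 did not call Mcm6, Cdk1 and Cenpa (adjusted p 0.0589, 0.0856 and 0.0947). Scaled by total counts, 12 of the 32 were higher, and the genes higher among all called went from 50.7% to 64.9%. Inside the Dmbt1 and Hao2 cluster none of the 32 was called, with 0.33% of all genes called, and the median log2 ratio was 0.09. Goblet cells also had no call among 32 genes, with 0.883% of all genes called.

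**Figure D3:**
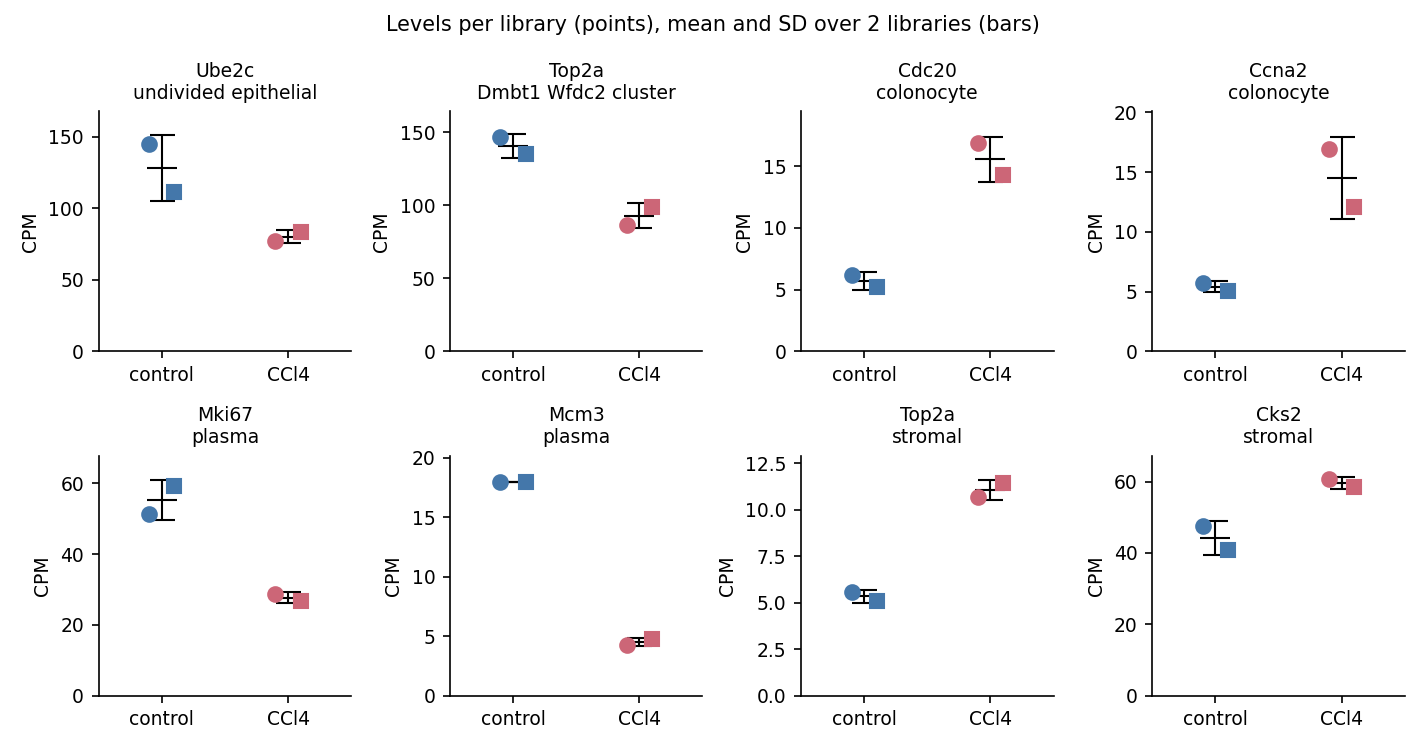
Levels (CPM) of called genes in each library: Ube2c in undivided epithelial cells, Top2a in their Dmbt1 and Wfdc2 cluster, Cdc20 and Ccna2 in colonocytes, Mki67 and Mcm3 in plasma cells, and Top2a and Cks2 in stromal cells; points are libraries and bars the mean with its SD (n = 2). Control and CCl4 libraries do not overlap in any panel.

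Immune cells had 4 of 32 genes lower in the CCl4 libraries, with 2.08% of all 15484 genes lower and 4.41% called. Mcm6 fell from 45.2 and 41.3 to 31.6 and 30.8 CPM (log2 ratio -0.47, SE 0.11, adjusted p = 0.0385 in edgeR). Rrm2, a subunit of ribonucleotide reductase, fell from 18.5 and 16.4 to 10.5 and 9.90 (-0.77, SE 0.16, adjusted p = 0.0204), and Mki67 from 45.1 and 49.9 to 32.9 and 33.6 (-0.51, SE 0.11, adjusted p = 0.024). Tpx2, which targets Aurora A to the spindle, fell from 11.7 and 11.4 to 6.25 and 7.33 (-0.77, SE 0.19, adjusted p = 0.0488). The groups did not overlap for any of these 4, and 24 of 32 genes did not overlap, against 47.3% of all genes. Of the 32 ratios 26 were below 0, with a median of -0.37.

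These immune calls moved with the scaling and with 1 class. Scaling by total counts in place of TMM shifted the median of all immune genes by 0.22, and then none of the 32 was lower and 1 was higher. The 4 genes had log2 ratios of -0.24 (Mcm6), -0.29 (Mki67), -0.55 (Rrm2) and -0.55 (Tpx2), none of them called. Over all genes, 1781 were then called in place of 683, and 91.0% of them were higher in place of 52.9%. The 10 plasma cell markers summed to 287925 and 273674 CPM in control and 165724 and 165836 CPM in CCl4 immune cells. Without plasma cells, chosen after seeing the data, none of the 4 passed (log2 ratios -0.09, 0.26, -0.04 and -0.28 for Mcm6, Mki67, Rrm2 and Tpx2). Cenpe rose there, from 9.14 and 6.65 to 20.5 and 14 CPM (1.14, SE 0.26, adjusted p = 0.02 in edgeR), the 1 gene called, with 2.11% of all genes called. Without control 1 only 1 of the 4 stayed called, and Tpx2 was lost without any 1 library. On counts thinned to 1000 per cell none of the 4 passed.

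Other immune levels did not pass. Pcna stood at 195 and 204 against 208 and 193 CPM and Rrm1, the large reductase subunit, at 47.5 and 38.1 against 32 and 33.5. Cks2 stood at 79.9 and 66.8 against 80.9 and 73.7, and Cdk1 at 15.1 and 17.6 against 13.1 and 9.35. The chromosome genes Hmgb2 (390 and 361 against 420 and 413) and Cenpa (41.2 and 37.8 against 45.9 and 38.0) were not lower, so the list did not move as a whole. Birc5 (16.5 and 17.6 against 15.7 and 9.26), Nusap1 (13.8 and 13 against 9.72 and 8.80), Ube2c (24.6 and 21.8 against 19.7 and 12.8) and Cdc20 (10.6 and 11.9 against 9.49 and 8.07) did not overlap between the groups.

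Plasma cells, which secrete antibody, had fewer cycling cells in the CCl4 libraries. Of 557 and 526 control plasma cells 27 and 27 were cycling, and of 302 and 255 in the CCl4 libraries 8 and 4, or 4.85% and 5.13% against 2.65% and 1.57% (log2 ratio -1.20, SE 0.33, adjusted p = 0.0187 in edgeR). The CCl4 shares were no higher than those of the glia (1.85 to 2.96%). Without control 2, CCl4 1 or CCl4 2 the adjusted p was 0.0648, 0.0728 and 0.232. Without Hmgb2, Pcna and Cks2 the cycling plasma cells numbered 21 and 19 against 3 and 3 (adjusted p = 0.0597 in edgeR). With all counts used the log2 ratio was -0.11 (adjusted p = 0.428).

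Plasma cell levels were lower for 5 of 32 genes, with 0.409% of all genes lower and 1.39% called, and 30 of 32 log2 ratios were below 0 (median -0.85). Mcm3 fell from 18.0 and 18.0 to 4.27 and 4.76 CPM (log2 ratio -1.99, SE 0.24, adjusted p = 0.00551 in edgeR), from 133 and 158 counts to 19 and 17. Mki67 fell from 51.2 and 59.3 to 28.8 and 26.6 (-1.0, SE 0.15, adjusted p = 0.0166). Both were lower in each CCl4 library than in either control. Mcm6 fell from 40.9 and 39.0 to 24 and 21.3, Mcm7 from 19.3 and 19.2 to 9.21 and 9.24, and Top2a from 40.4 and 45.7 to 22.5 and 24.7. Their adjusted p of 0.044, 0.0436 and 0.0359 rose above 0.05 without any 1 library, as did that of Mki67 without control 2 (0.0774), whereas Mcm3 kept its call. With scaling by total counts, which shifted all genes by 0.11, Mcm3 (-1.88) and Mki67 (-0.89) stayed called and the other 3 did not. The summed epithelial markers in plasma cells were 260 and 303 CPM in control and 624 and 645 in CCl4 libraries, higher for 9 of 10 markers. Their part in these results was not tested.

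T cells did not pass the test. Of 812, 814, 670 and 545 T cells 9.98%, 11.1%, 10.4% and 10.6% were cycling (log2 ratio 0.00, adjusted p = 0.988 in edgeR). The T cell cluster led by Ccl5 and Emb had 12.2% and 13.3% against 9.94% and 11.4%, and the one led by Emb and Icos 7.39% and 8.57% against 11.04% and 9.85%. The groups did not overlap in either cluster, and the shares within them were not tested. None of 28 listed genes tested was called in T cells, with 0.54% of all genes called. Macrophages and monocytes had 6.88% and 6.55% against 5.93% and 6.15% (adjusted p = 0.72 in edgeR) and no call among 32 genes, with 1.54% of all genes called. The class is made of 2 clusters. The cluster led by H2-Ab1 and H2-Aa, genes of antigen presentation, had 19.7% and 17.3% against 9.76% and 9.09%, from 25, 26, 20 and 17 cycling cells, and the one led by Cxcl2 and Lyz2 had 4.41% and 3.92% against 4.73% and 5.22%. Shares within these clusters were not tested. Natural killer and innate lymphoid cells had 6.77% and 10.3% against 8.43% and 9.16%, and none of 16 genes tested was called, with 0.52% of all genes called.

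**Figure D4:**
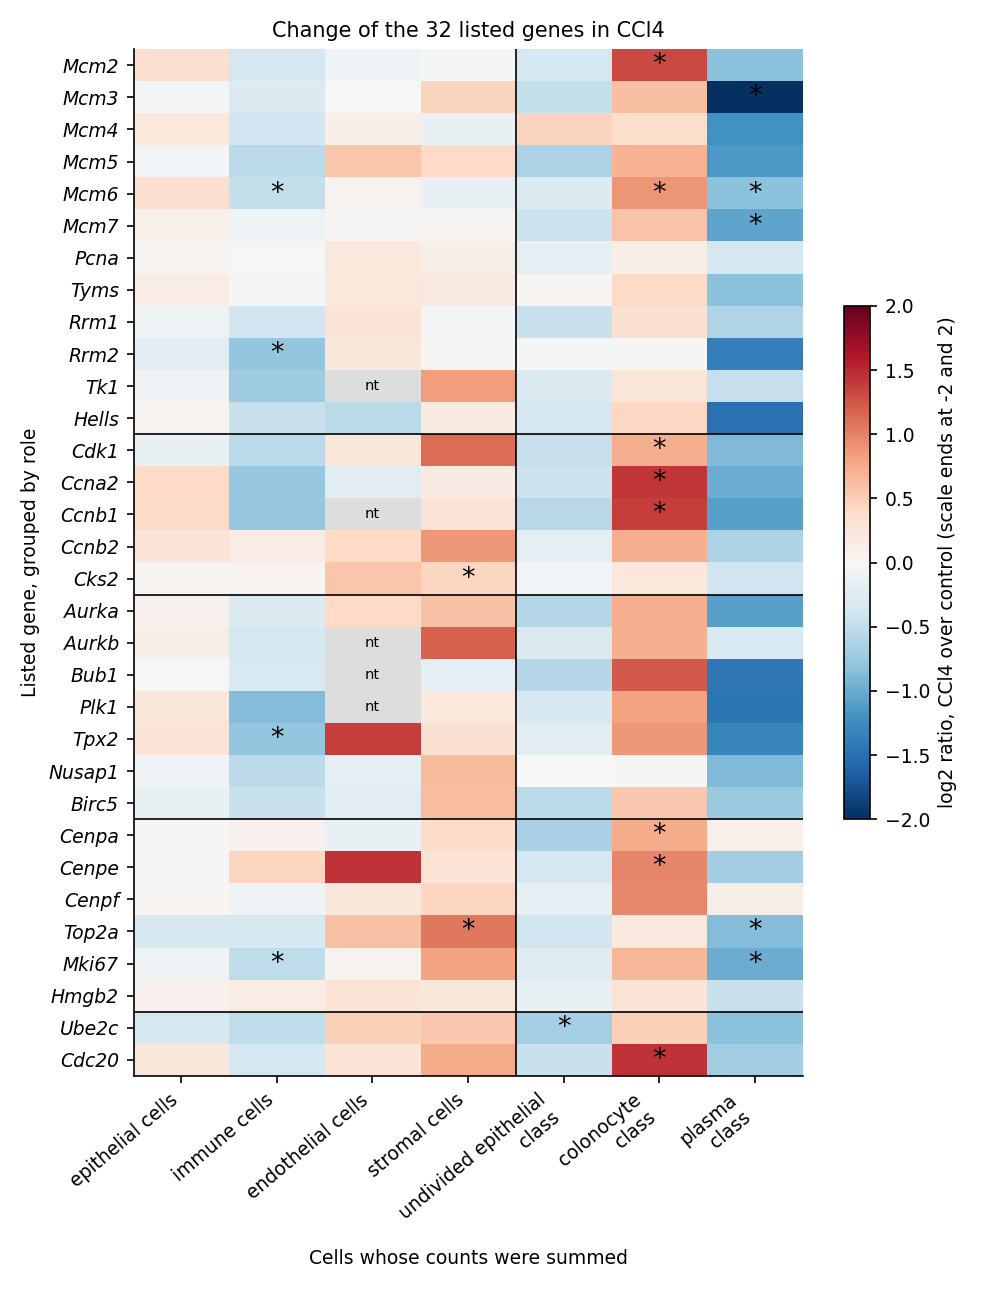
Log2 ratio of CCl4 over control for each of the 32 genes in the 4 compartments and in undivided epithelial, colonocyte and plasma cells; an asterisk marks an adjusted p under 0.05 in edgeR, nt a gene not tested, and colours end at -2 and 2. Colonocytes are above 0 for 32 of 32 genes and plasma cells below 0 for 30 of 32.

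In stromal cells 2 of 32 genes were higher, with 1.36% of all 16073 genes higher and 1.95% called. Top2a rose from 5.60 and 5.08 to 10.7 and 11.5 CPM (log2 ratio 1.05, SE 0.21, adjusted p = 0.0231 in edgeR), on 62 and 62 counts in control and 133 and 120 in CCl4 libraries. Cks2, which docks Cdk1 to its substrates, rose from 47.6 and 40.9 to 60.7 and 58.5 (0.43, SE 0.10, adjusted p = 0.0441). Neither kept its call when control 2 or CCl4 2 was left out, and Cks2 lost it without CCl4 1 as well; DESeq2 called neither (adjusted p 0.056 and 0.119). Of the 32 ratios 27 were above 0 (median 0.33), and the groups of 15 genes did not overlap, against 42.5% of all genes.

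Other stromal levels were Pcna at 121 and 115 against 130 and 126 CPM, Rrm1 at 44.8 and 41.3 against 39.7 and 43.8, and Hmgb2 at 189 and 187 against 211 and 229. The low genes were Nusap1 (5.60 and 5.57 against 9.15 and 8.22), Aurka (3.25 and 3.60 against 5.46 and 4.87), Ccna2 (4.07 and 3.36 against 4.10 and 4.2), Ube2c (4.52 and 3.19 against 4.90 and 6.31) and Cdc20 (3.25 and 3.19 against 3.77 and 7.07). None of these passed the test. Top2a was also higher in fibroblasts alone, at 5.38 and 5.21 against 10.05 and 11.7 CPM (1.03, SE 0.23, adjusted p = 0.0462 in edgeR), the 1 gene called there, with 1.66% of all genes called. That call was lost without control 1, control 2 or CCl4 2. Smooth muscle cells had no call among 12 genes tested, with 0.944% of all genes called, and shares of 2.40% and 0.670% against 2.61% and 3.25%.

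In endothelial cells 27 of the 32 genes had counts enough for the test (not Tk1, Ccnb1, Aurkb, Bub1 and Plk1), and none passed, with 0.624% of all 12333 genes called. At an unadjusted p under 0.05 in edgeR there were 3 of 27, against 1198 of all 12333 genes, and DESeq2 called 0. Cks2 stood at 75.3 and 61.1 against 99.98 and 100.8 CPM (log2 ratio 0.56, SE 0.14, adjusted p = 0.0627 in edgeR). Pcna stood at 327 and 307 against 393 and 339, Hmgb2 at 188 and 194 against 242 and 220, Mcm3 at 46.2 and 43.2 against 41.4 and 47.5, and Cenpa at 19.2 and 17.9 against 18.2 and 15.1. For the 3 genes named first the groups did not overlap, as for 10 of 27 genes in all, against 39.7% of all genes. Nusap1, Aurka, Ccna2, Ube2c and Cdc20 had at most 37 counts in a library.

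Lymphatic endothelial cells had no cycling cell in 75 and 62 control cells, which allows shares of up to 4.0% and 4.84%. In the CCl4 libraries 6 of 104 and 4 of 96 were cycling, or 5.77% and 4.17% (adjusted p = 0.0161 in edgeR). Without control 1, control 2 or CCl4 1 the adjusted p was 0.0654, 0.0648 and 0.0728, and it was 0.301 when Hmgb2, Pcna and Cks2 were not counted. Levels could be tested for 4 of the 32 genes there, and none was called, with 0.0577% of all genes called. Blood endothelial cells had 2.50% and 2.86% against 2.86% and 3.35% (adjusted p = 0.749 in edgeR) and no call among 27 genes, with 0.418% of all genes called. In glia Hmgb2 rose from 448 and 508 to 694 and 779 CPM (0.62, SE 0.12, adjusted p = 0.00326 in edgeR), the 1 gene called of 9 tested, with 0.797% of all genes called. That call was lost without control 1 or CCl4 2 (adjusted p 0.0628 and 0.124). Classes without a call were also counted at an unadjusted p under 0.05 in edgeR, with all genes tested as background. T cells had 7 of 28 listed genes (898 of all 10744), goblet cells 4 of 32 (1698 of 12343) and macrophages and monocytes 3 of 32 (1356 of 11949). Natural killer and innate lymphoid cells had 1 of 16 (440 of 5958) and blood endothelial cells 3 of 27 (1143 of 11964). Smooth muscle had 4 of 12 (1060 of 10486) and lymphatic cells 0 of 4 (360 of 5198). The Dmbt1 and Hao2 cluster had 2 of 32 (1309 of 11228) and the Gm26917 cluster 1 of 32 (894 of 11687). Counted per gene and class, DESeq2 made 12 calls over all classes and edgeR 16.

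The balance of late to early genes was measured by the summed CPM of the G2 and M phase genes without Hmgb2, divided by that of the 12 replication genes. It was 2.17 and 2.12 in control and 2.02 and 2.02 in CCl4 epithelium. In stromal cells it was 0.345 and 0.348 against 0.465 and 0.494, and in endothelial cells 0.267 and 0.293 against 0.327 and 0.329. The immune ratios of 0.779 and 0.760 against 0.791 and 0.711 overlapped. Without plasma cells they were 0.659 and 0.571 against 0.737 and 0.663, and in T cells 0.533 and 0.532 against 0.756 and 0.664, with no overlap in either. The late sum was thus larger than the early sum in epithelial cells and smaller in the other compartments. The late list holds more genes, and gene length was not corrected for. Which phase prevailed within a compartment can therefore not be read from this ratio.

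Whether the change differed between compartments was tested as an interaction with library as a block. Mcm6 changed by 0.75 less in immune than in epithelial cells on the log2 scale (-0.75, SE 0.20, adjusted p = 0.0206 in edgeR), and Ccna2 by 1.10 less (-1.10, SE 0.31, adjusted p = 0.0353), with 5.18% of all genes called. Cks2 changed by 0.58 more in endothelial than in epithelial cells (SE 0.13, adjusted p = 0.0211), with 1.55% of all genes called. Top2a changed by 1.39 more in stromal than in epithelial cells (SE 0.25, adjusted p = 0.000915), with 2.75% of all genes called. No other of the 32 genes passed in any of these 3 contrasts.

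Other cell cycle genes gave few calls at the level of compartments. Epithelial sums follow the mix of classes, which differed between the groups. Colonocytes were 41.5% and 38.9% of control and 31.6% and 33.6% of CCl4 epithelial cells. Goblet cells were 13.5% and 14.2% against 20.3% and 20.0%, and the shares of undivided cells overlapped. The part of this mix in the epithelial levels below, crypt base and surface genes included, was not tested. Of all 17524 epithelial genes 324 were higher and 333 lower (3.75% called), the background for the counts that follow. In the epithelium 1 of 30 other S phase genes was higher, the primase Prim1 (6.17 and 5.68 against 8.87 and 10.3 CPM, adjusted p = 0.04 in edgeR), and 0 of 40 other G2 and M phase genes. Of the G1 cyclins and kinases 2 of 17 were higher, Ccnd2, cyclin D2 (122 and 112 against 156 and 151, adjusted p = 0.0208), and the growth regulator Myc (30.1 and 30.05 against 38.9 and 38.4, adjusted p = 0.028). None of 16 inhibitors passed. Crypt base genes were higher in 4 of 13 cases, with a median log2 ratio of 0.35. The smallest p belonged to Sox9, a transcription factor of crypt progenitors (91.7 and 79.2 against 128 and 117 CPM, adjusted p = 0.0102), Slc12a2, an ion transporter (127 and 134 against 193 and 168, adjusted p = 0.0151) and Smoc2 (10.5 and 8.64 against 14.5 and 14.4, adjusted p = 0.0281), and Cdca7 was the fourth. Surface colonocyte genes were lower in 6 of 14 cases, with Krt20 at 512 and 485 against 306 and 323 CPM (adjusted p = 0.000916), Ceacam20 at 24.9 and 27.3 against 15.4 and 16.7 (adjusted p = 0.00247) and Guca2a at 7193 and 6327 against 4439 and 4574 (adjusted p = 0.00325).

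Of all 13893 colonocyte genes 441 were higher and 429 lower (6.26% called). In colonocytes 3 of 30 other S phase genes were higher (Dut, Prim1 and Cdt1), and 8 of 40 other G2 and M phase genes were higher and 1, Pttg1, lower. Racgap1, which acts in cytokinesis, rose from 6.31 and 3.57 to 13.4 and 11.3 CPM (adjusted p = 0.00891 in edgeR), and Ckap2 from 5.26 and 4.38 to 10.3 and 10.2 (adjusted p = 0.012). Hmmr rose from 1.75 and 2.07 to 8.36 and 4.88 (adjusted p = 0.0131). Ccnd2, Cdk4 and Myc were higher as well. Inside the Dmbt1 and Hao2 cluster no other S phase, other G2 and M phase or G1 gene passed, with 0.33% of all genes called. The median log2 ratio there was -0.19 for the other S phase and 0.24 for the other G2 and M phase genes. In undivided cells, where 46 of 14410 genes were higher and 39 lower (0.59% called), no other S, G2 or M phase gene passed, and the crypt base genes Lgr5, Slc12a2 and Sox9 were higher. Lgr5, the receptor that marks crypt stem cells, rose from 3.93 and 2.17 to 10.1 and 13.3 CPM (adjusted p = 0.011 in edgeR), on 9 to 95 counts. Within the Dmbt1 and Wfdc2 cluster of undivided cells, 2 of 40 other G2 and M phase genes were lower, with 0.788% of all genes called. Of those 40 ratios 36 were below 0, with a median of -0.35. None of 30 other S phase genes passed in that cluster.

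Of all genes, 361 were higher and 322 lower of 15484 in immune cells (4.41% called), 218 and 95 of 16073 in stromal cells (1.95%) and 53 and 24 of 12333 in endothelial cells (0.624%). In immune cells 2 of 30 other S phase genes were lower (Rpa2 and Dut), with 27 of 30 ratios below 0, and 1 of 40 other G2 and M phase genes (Prc1, from 22 and 24.5 to 15.4 and 12.0 CPM, adjusted p = 0.0208 in edgeR). G1 genes were lower in 3 of 17 cases (Ccnd2, E2f2 and Cdc25a). Inhibitors were lower in 3 of 16, led by Trp53inp1, a target of p53 (785 and 730 against 440 and 409, adjusted p = 0.000969), with Cdkn2a and Ccng1. Without plasma cells, no gene of the other S phase, other G2 and M phase, G1 or inhibitor lists passed in immune cells. The background was then 2.11% of all genes called. Of the other G2 and M phase ratios, 32 of 39 then lay above 0, with a median of 0.27. Surface colonocyte genes were higher in 6 of 13 cases in immune, 6 of 13 in stromal and 1 of 9 in endothelial cells, beside the epithelial RNA given above. Crypt base genes gave 1 call in immune cells (Sox9, higher) and none in stromal or endothelial cells. In plasma cells, with 108 of 11011 genes higher and 45 lower (1.39% called), Dut (34.0 and 37.5 against 20.5 and 19.1 CPM) and Smc4, a condensin subunit (109 and 114 against 67.4 and 72.8), were lower. Cdkn1c, an inhibitor of cyclin-dependent kinases, rose there from 3.92 and 2.05 to 16.4 and 25.5 (log2 ratio 2.82, SE 0.36, adjusted p = 0.00661). Stromal cells had 1 of 38 other G2 and M phase genes higher, Kif23, a motor of cytokinesis (1.81 and 1.97 against 5.14 and 5.73, adjusted p = 0.0416), and Mycn among G1 genes (23.9 and 21.6 against 30.8 and 37.4, adjusted p = 0.0342). Endothelial cells had no call in the S, G2 and M, G1 and inhibitor lists.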

How the data were processed

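Single cells of 4 mouse colon libraries (2 control, 2 CCl4) were analysed. The authors deposited raw counts for each gene in each barcode, as PISA v0.12b output per the file headers, and no barcode had fewer than 1001 counts. The submitters' processing notes name the build GRCm38, and no aligner is named in the sources used here. Cells needed 200 genes and a mitochondrial share of up to 25%, and the 6% with the highest Scrublet scores (scanpy 1.11.5) were removed per library as doublets. Clusters (2000 variable genes from Pearson residuals without the 32 genes and receptor segments, 30 components, 15 neighbours, leidenalg 0.10.2 at resolution 1.0) numbered 33. A cluster was named from at least 3 markers with a log2 ratio of at least 1 over the median of clusters, in at least 10% of its cells, and a lead of 0.5; 3 clusters with 1351 cells stayed unnamed and were left out. The choice of variable genes, the scoring against the median and the rule for compartments were made after seeing the data. So were the tests within single epithelial clusters and in immune cells without plasma cells.

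Counts were summed per library and compartment, or class with at least 50 cells in every library (13 classes), and tested with edgeR 4.0.16 (filterByExpr, TMM, quasi-likelihood, treatment only), with Benjamini-Hochberg adjustment over all genes and a threshold of 0.05. Shares of cycling cells were tested in edgeR with the log of the number of cells as offset and no dispersion trend. Scripts were tested on simulated data with changes of 2-fold. In epithelial cells 122 of 191 changed genes were recovered beside 25 false calls, and in immune cells 90 of 191 beside 10. In endothelial cells 115 of 192 were recovered beside 4 false calls, and in stromal cells 122 of 191 beside 4. Named are all of the 32 genes called in a compartment or class, the 2 with the highest level in each role and compartment, and the called genes with the 3 smallest p of each other list. Further genes of the other lists, and examples from cycling against other cells, were chosen after their values were seen. The members and lists were chosen with earlier results of these data known. Alternatives were other scaling, DESeq2 1.42.0, no filter on low counts, other thresholds and cell filters, a replicate block and leaving out each library.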

Additional observations from a re-analysis of the deposited data

Results flagged for a closer look

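The change of 4 of the 32 genes in the CCl4 libraries differed between compartments by the interaction test in edgeR. For Mcm6 the log2 ratio was 0.33 in epithelial and -0.47 in immune cells, a difference of -0.75 (adjusted p = 0.0206). For Ccna2 it was 0.39 in epithelial and -0.76 in immune cells, a difference of -1.10 (adjusted p = 0.0353). Cks2 had 0.06 in epithelial and 0.56 in endothelial cells, a difference of 0.58 (adjusted p = 0.0211), although neither change passed by itself. Top2a had -0.31 in epithelial and 1.05 in stromal cells, a difference of 1.39 (adjusted p = 0.000915). The immune values move with the plasma cells and the scaling given above.

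The share of cycling cells moved in opposite directions in pairs of classes in which both CCl4 libraries lay on one side of both controls. Between colonocytes and plasma cells the log2 ratios differed by 1.84, and between colonocytes and undivided epithelial cells by 0.99. Neither difference was tested. Groups of 2 libraries are too small to look for a single library that stands apart.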

How the results depend on the processing

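Of the 32 genes, the number called in epithelial cells (0) became 1 with no filter on low counts, 1 with stricter cells (at least 500 genes, at most 10% mitochondrial) and 1 without the Gm26917 cluster, and lay between 0 and 2 when 1 library was left out (2 without control 2). In immune cells (4) it became 2 with DESeq2, 7 with no filter, 1 with scaling by total counts, 2 with doublets kept, 2 with stricter cells, 0 on thinned counts and 1 without plasma cells, and lay between 1 and 4 without 1 library. In endothelial cells (0) it became 1 with no filter, 1 with doublets kept and 2 with the endothelial and mural cluster kept, and lay between 0 and 1. In stromal cells (2) it was 0 with DESeq2, 0 with stricter cells and 0 on thinned counts, and lay between 0 and 2. Over all classes the calls, counted per gene and class (16), numbered 35 with no filter and between 10 and 22 without 1 library. The log2 ratio of the epithelial share turned to 0.12 and that of the immune share to 0.13 without thinning, and the immune one to 0.14 with at least 2 listed genes (adjusted p = 0.0392 in edgeR). The endothelial one passed without thinning (0.60) and with at least 2 listed genes (0.30). The stromal one did not pass with at least 5 listed genes (1.36) or without Hmgb2, Pcna and Cks2 (0.83). Without 1 library these ratios ranged from -0.21 to -0.06 (epithelial), -0.16 to -0.08 (immune), 0.35 to 0.56 (endothelial) and 0.47 to 0.98 (stromal). Classes with a called share (4) numbered 0 with at least 5 listed genes, 0 without Hmgb2, Pcna and Cks2, and 0 to 3 without 1 library. Genes called between cycling and other cells numbered 658 (epithelial), 543 (immune) and 55 (stromal) with at least 5 listed genes; in endothelial cells that comparison and the share could not be fitted. Mki67 in immune cells turned to 0.26 without plasma cells, and the colonocyte share to -0.34 within its Dmbt1 and Hao2 cluster. The causes of these changes were not tested. Over 26 single genes and class shares, 280 values under alternatives kept direction and call in 172 cases, lost the call in 106 and turned in 2. Scaling by total counts moved the share of called genes that were higher by over 10 percentage points also in plasma cells (70.6% to 81.3%), natural killer and innate lymphoid cells (64.5% to 52.3%), goblet cells (68.8% to 57.9%) and macrophages (69.6% to 57.1%). Shared library numbers were not taken as pairing, with only 2 pairs and correlations of 0.12 to 0.19. With the replicate block, 7 immune, 1 endothelial and 33 class calls were made, and the stromal (0.70, adjusted p = 0.174 in edgeR) and colonocyte (0.65, adjusted p = 0.064) shares lost the call.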
